A study of Homo sapiens with 12 samples.

Results

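The genes described here are 9 components of the MHC class I antigen presentation pathway, chosen by their symbols among the 25268 gene symbols with deposited values. They are the heavy chains HLA-B, HLA-C, HLA-E and HLA-F, the light chain B2M, the peptide transporter subunits TAP1 and TAP2, the chaperone tapasin (TAPBP) and the class I transactivator NLRC5. All 9 passed the filter on low values and were among the 14676 genes tested. The samples were HEK293 cells, an established human embryonic kidney line, transiently transfected with 2 μg of a plasmid carrying His- and HA-tagged RBMX under a CMV promoter (called RBMX cells) or of the mock empty vector (control cells). For each vector 3 cultures were grown, labelled as separate biological samples. For each replicate number a total RNA library and a polysomal RNA library were sequenced, which gave 12 libraries in 4 groups of 3. The control cells carried no RBMX plasmid but went through the same transfection. Untransfected cells were not analysed here. RBMX is an RNA-binding protein with roles in splicing, and the question put to these libraries was which mRNAs change in abundance or in ribosome loading when it is overexpressed.

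MHC class I molecules display peptides from proteins made inside the cell to cytotoxic T lymphocytes and natural killer cells. Proteasomes cut the peptides, the TAP1 and TAP2 heterodimer carries them into the endoplasmic reticulum, and tapasin holds an empty heavy chain and B2M at the transporter until a peptide binds. The genes are known to be induced by interferons, through interferon-stimulated response elements bound by IRF and STAT factors, and by NLRC5, which acts with the RFX, CREB and NFY factors on the SXY module of the class I promoters. Polysomal RNA is the RNA that sediments with several ribosomes on a sucrose gradient, whereas total RNA was pooled here from all fractions of the gradient.

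In the GENCODE annotation of GRCh38, 7 of the 9 genes lie in the MHC region of chromosome 6. HLA-F spans 29722775 to 29738528 and HLA-E 30489467 to 30494205 on the plus strand. HLA-C (31268749 to 31272130), HLA-B (31269491 to 31357188), TAP2 (32821833 to 32838780), TAP1 (32845209 to 32853978) and TAPBP (33299694 to 33314387) are on the minus strand, and the annotated span of HLA-B runs across most of HLA-C. B2M lies on chromosome 15 from 44711487 to 44718877 and NLRC5 on chromosome 16 from 56989485 to 57083531, both on the plus strand. TAP1 faces PSMB9, an immunoproteasome subunit gene, from a start site 488 bases away (RefSeq, GRCh38.p14). Another TAP1 start site in the same source lies 1431 bases away. Values are FPKM summed over a gene, so exons and alleles are not resolved. Exact windows of 100 bases of a member's longest coding transcript were compared with the transcripts of other genes to see where fragments could be ambiguous. None was shared between members. HLA-C shared 0.275% and HLA-E 0.600% of their windows with any other gene. The values of TAP2, HLA-F, TAP1 and HLA-B are less certain, since 35.2%, 31.8%, 12.7% and 12.2% of their windows also occur in other annotated genes, mostly overlapping records such as PSMB8-AS1 at TAP1.

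The known regulatory elements of these genes can be seen in the promoter sequences of RefSeq (GRCh38.p14), which cover 250 bases before and 50 bases after a start site and hold 7 of the 9 members. HLA-E and NLRC5 were not matched. The stretches below are shown because each holds the core of the interferon-stimulated response element, AANNGAAA on either strand, in capitals. Overlapping copies are capitalised together, and copies that read TTTC are on the opposite strand.
HLA-B, chr6:31357316-31357345, minus strand: actcccctgagTTTCACTTcttctcccaac
HLA-C, chr6:31272225-31272254, minus strand: actcccctgagTTTCACTTctcccaacctg
HLA-F, chr6:29723267-29723296, plus strand: tctccccagagTTTCTCTTtctctcccaac
B2M, chr15:44711367-44711396, plus strand: ctctaagaAAAGGAAACTGAAAacgggaaa
TAP1, chr6:32853817-32853846, minus strand: gcggccgcTTTCGATTTCGCTTtcccctaa
TAP2, chr6:32838780-32838809, minus strand: ggctggggAAGCGAAAGCGAAAgctgcccg
TAPBP, chr6:33314075-33314104, minus strand: ttggaggaAAGTGAAAGTGAAAggaggaag

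The core was found for all 7 of these members, for TAP1 at the start site nearer to PSMB9. It was found in 22.8% of the 35116 promoters of the same length in the table. The longer repeat GAAANNGAAA, which overlaps the core, was found for HLA-F, B2M, TAP1, TAP2 and TAPBP and in 3.57% of all promoters. A sequence like the kappaB site, GGGNNTTNCC, was found for HLA-B, B2M, TAP1 and TAPBP and in 5.68% of all promoters. For HLA-B and HLA-C the SXY module is shown as well, from the core of the X2 box (TGACG) to the Y box (ATTGG), both in capitals.
HLA-B, chr6:31357256-31357285, minus strand: TGACGcgtccccacttcccactcccATTGG
HLA-C, chr6:31272168-31272197, minus strand: TGACGcgtccccaattcccactcccATTGG

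The promoter of B2M holds both sets of letters in this order too, with first bases at -75 and -49 from the start site. It is not printed because their spacing exceeded the limit set for printing. The letters of the X2 core occur in 24.6% and those of the Y box in 34.6% of all promoters, searched on both strands. These letters were chosen with the sequences in view and are descriptions, not tested sites.

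The library labels were checked with the overexpressed gene. In total RNA the FPKM of RBMX ran from 108 to 147 with the empty vector and from 1460 to 2073 with the RBMX plasmid. On polysomes it ran from 87.4 to 148 and from 1072 to 1328. FPKM summed to between 817528 and 1903317 per library, and to between 451382 and 547757 without small RNA genes, but the number of fragments is unknown, so no counting interval can be given. The HEK293 markers VIM, KRT8, KRT18, NEFM, NEFL and PAX2 were all detected. Their sum was 429 FPKM in control total and 397 in control polysomal replicate 3, against 834 to 974 in the other 10 libraries, and the part of this in the results was not tested. The sum of 8 markers of leukocytes, endothelium and liver was low but higher in RBMX cells, at 1.39 to 2.09 FPKM in control and 1.81 to 2.77 in RBMX total libraries, which overlapped, and at 1.38 to 1.67 against 1.82 to 2.47 in polysomal libraries, which did not. Most of it was the myeloid marker CD14. The myeloid marker ITGAM, below the filter on low values, had 0.081 to 0.153 FPKM in control and 0.273 to 0.549 in RBMX total libraries, and did not overlap in polysomal RNA either (0.063 to 0.196 against 0.269 to 0.551). ALB of liver did not overlap in total RNA, with 0.068 to 0.105 against 0.184 to 0.226 FPKM. PTPRC, CD3E, PECAM1 and CDH5 did not exceed 0.069 FPKM in any library, and PTPRC was listed at 0 in some. The part of these markers in the results was not tested. Results without replicate 3 of either vector are given with the comparison of the vectors.

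All components of the pathway were expressed in control HEK293 cells, over a wide range of levels per length of transcript. In control total RNA the order of mean FPKM ± SD (n = 3) was B2M at 557 ± 82.7, HLA-C at 376 ± 75.6, HLA-B at 94.3 ± 29.2, HLA-E at 47.9 ± 3.68, TAP1 at 28.8 ± 6.13, TAPBP at 28.3 ± 2.17, HLA-F at 19.3 ± 2.04, TAP2 at 13.7 ± 4.05 and NLRC5 at 2.07 ± 0.0994. Each gene lay above the next in this order in all 3 libraries, except TAP1 and TAPBP, whose libraries overlapped. HLA-C thus had the highest level of the heavy chains, and B2M a level near that of the 4 heavy chains together, with B2M to heavy chain ratios of 0.855, 0.932 and 1.41 in control cultures 1 to 3. The order was the same in control polysomal RNA. In RBMX total RNA the mean of HLA-F (51.2 FPKM) lay above that of TAPBP (45.2 FPKM), while B2M, HLA-C and HLA-B kept the first places and NLRC5 the last.

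The heavy chains, which form the peptide groove, were measured at higher levels in RBMX than in control cells. In these libraries of whole cultures, more RNA per cell cannot be told apart from more cells that express a gene. HLA-C, a classical heavy chain, had 462, 347 and 320 FPKM in control total libraries 1 to 3 and 948, 887 and 521 in RBMX total libraries 1 to 3. HLA-B, the other classical heavy chain among the members, had 124, 93.3 and 65.6 FPKM in control and 288, 275 and 131 in RBMX total libraries. In both genes all RBMX libraries lay above all control libraries, and RBMX replicate 3 was the nearest to them. HLA-E, which presents leader peptides of other class I chains to natural killer cell receptors, had 52.1, 46.1 and 45.5 FPKM in control and 141, 143 and 66.7 in RBMX total libraries. HLA-F, a non-classical heavy chain, had 21.6, 17.7 and 18.7 FPKM in control and 66.3, 60.9 and 26.2 in RBMX total libraries. The ratio of the means was 2.09 for HLA-C, 2.44 for HLA-E, 2.45 for HLA-B and 2.65 for HLA-F. In polysomal RNA the same 4 genes had ratios of 2.01, 2.31, 2.28 and 2.46, again with no overlap between the groups.

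B2M, the invariant light chain shared by all class I molecules, had 565, 470 and 635 FPKM in control total and 1381, 1441 and 704 in RBMX total libraries. The highest control library was replicate 3, and the lowest RBMX library was replicate 3 as well. In polysomal RNA B2M had 566, 547 and 631 FPKM in control and 1359, 910 and 679 in RBMX cells. RBMX polysomal replicate 2 was thus below replicate 1 in B2M, although it was the highest of the 3 for all other members but HLA-C. The ratio of B2M to the sum of the 4 heavy chains was 0.587 in that library, against 0.814 to 1.25 on control polysomes and 0.825 and 0.882 in the other RBMX polysomal libraries.

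**Figure D1:**
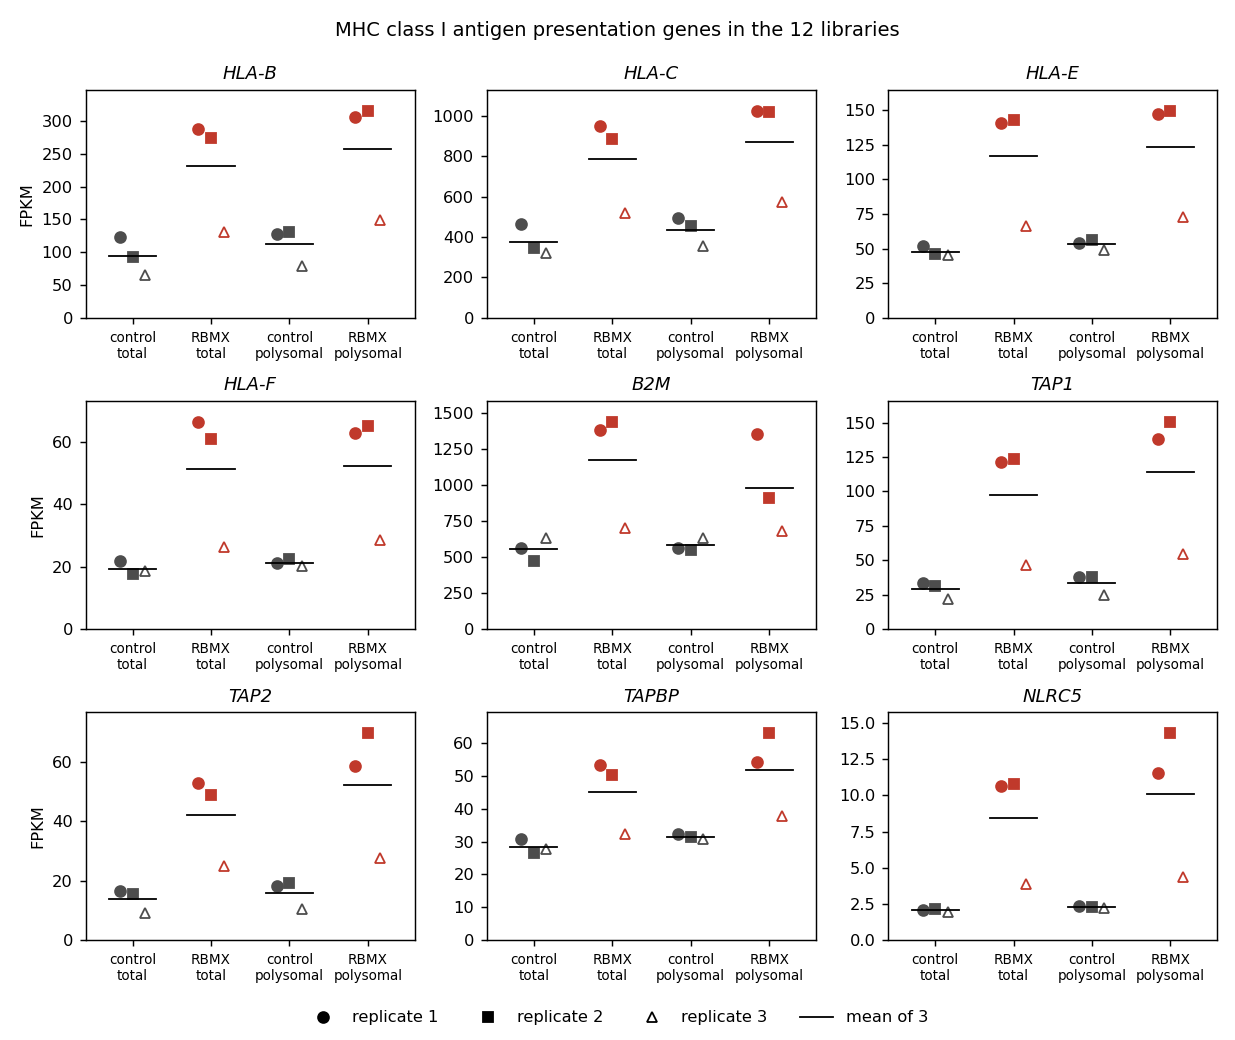
FPKM (vertical axes, linear, from 0, scaled separately) of the 9 MHC class I antigen presentation genes in each of the 12 libraries, by vector and fraction. Grey symbols are control and red symbols RBMX libraries, shapes give the replicate and bars the mean of 3. In every panel the red symbols lie above the grey ones of the same fraction, with RBMX replicate 3 (open triangles) lowest.

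The genes of the transporter had the largest differences beside NLRC5. TAP1, which forms the transporter with TAP2, had 33.5, 31.2 and 21.9 FPKM in control total libraries and 122, 124 and 46.3 in RBMX total libraries. TAP2 had 16.7, 15.4 and 9.10 FPKM against 52.8, 48.8 and 25.0. Control replicate 3 was the lowest of the controls in both genes, and RBMX replicate 3 was again lowest among RBMX libraries. The ratio of the means was 3.37 for TAP1 and 3.08 for TAP2 in total RNA, and 3.40 and 3.25 in polysomal RNA. Tapasin differed least, with 30.7, 26.5 and 27.7 FPKM against 53.2, 50.2 and 32.2 in total RNA and a ratio of 1.60. The relation of tapasin to the transporter was therefore another in RBMX cells, where the ratio of TAPBP to TAP1 was 0.437, 0.405 and 0.694 in total RNA, against 0.917, 0.849 and 1.27 in control cells.

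NLRC5, the regulator that drives class I promoters, was the least abundant member and had the largest ratio. Its FPKM were 2.05, 2.17 and 1.98 in control total libraries and 10.6, 10.8 and 3.91 in RBMX total libraries, a ratio of means of 4.08. In polysomal RNA they were 2.36, 2.29 and 2.195 against 11.6, 14.3 and 4.36, a ratio of 4.42. The controls hardly varied, and even RBMX replicate 3 lay near 1.9 times the control mean in each fraction.

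No member passed the threshold in the test across all genes. In total RNA 0 of 9 had a limma adjusted p up to 0.05, where 0.164% of all genes tested did, and 9 of 9 were higher with an unadjusted p under 0.05, as 7.93% of all genes were. In polysomal RNA 0 of 9 passed, where 0.0477% of all genes did, and 8 of 9 were higher with an unadjusted p under 0.05, as 5.16% were. All 9 members had every RBMX library above every control library in both fractions, which held for 11.9% of all genes in total and for 10% in polysomal RNA. A two-sided exact permutation test of 3 against 3 cannot give a p under 0.1, and each member had p = 0.1 in each fraction. The median log2 fold change, on the log2(FPKM + 1) scale, over the members was 1.25 in total and 1.14 in polysomal RNA, against 0 over all genes tested in each. On this scale NLRC5 is understated because of its low level.

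In total RNA the log2 fold change was 1.61 for TAP1 (standard error 0.42, limma adjusted p = 0.181), 1.52 for TAP2 (standard error 0.36, adjusted p = 0.176) and 1.51 for NLRC5 (standard error 0.36, adjusted p = 0.176). It was 1.25 for HLA-B (standard error 0.38, limma adjusted p = 0.200), 1.26 for HLA-F (standard error 0.36, adjusted p = 0.189), 1.19 for HLA-E (standard error 0.31, adjusted p = 0.181), 1.03 for HLA-C (standard error 0.28, adjusted p = 0.183) and 1.02 for B2M (standard error 0.31, adjusted p = 0.200). TAPBP had the smallest difference, 0.63 (standard error 0.20, limma adjusted p = 0.209). On polysomes the members ran from 0.67 (TAPBP) and 0.70 (B2M) to 1.63 (TAP1), with limma adjusted p-values from 0.400 to 0.425. B2M was the member whose unadjusted p missed 0.05 there.

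**Figure D2:**
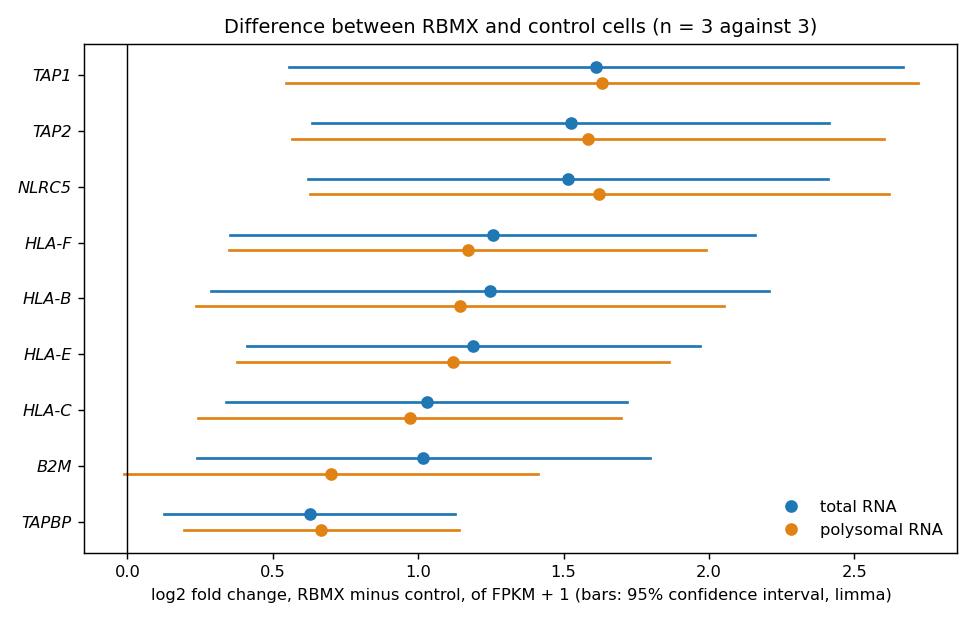
Log2 fold change of FPKM + 1 between RBMX and control cells (horizontal axis) for each of the 9 genes, in total RNA (blue) and polysomal RNA (orange), with 95% confidence intervals from limma (n = 3 against 3). Intervals lie above 0, except that of B2M in polysomal RNA, which reaches down to -0.011, and TAP1, TAP2 and NLRC5 are at the top.

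How far a member differed from the next was compared within libraries, as the log2 ratio between pairs of members. In total RNA the order from the largest to the smallest difference was TAP1, TAP2, NLRC5, HLA-F, HLA-B, HLA-E, HLA-C, B2M and TAPBP. Of the 8 pairs of neighbours in this order, 1 (NLRC5 and HLA-F) had ratios that did not overlap between RBMX and control libraries, so the order within the heavy chains is not resolved. Of the 28 pairs farther apart, 15 did not overlap in total RNA and 20 did not in polysomal RNA. The order came from these same libraries and only its direction was counted, so the counts are descriptions. No share over other pairs of genes was taken. The lowest Benjamini-Hochberg adjusted p of the exact permutation test over the pairs was 0.225 in total and 0.171 in polysomal RNA. TAP1 against TAPBP, for instance, differed by 0.99 on the log2 scale in total and by 0.97 in polysomal RNA without overlap.

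The size of every difference depended on RBMX replicate 3. In total RNA RBMX replicates 1 and 2 had members at 1.88 to 5.15 and at 1.77 to 5.21 times the control mean, with medians of 3.05 and 2.99. Replicate 3 had them at 1.14 to 1.89 times, with a median of 1.39. The polysomal library of the same number gave a median of 1.34, against 2.75 and 2.80 in the other 2 RBMX replicates. RBMX itself was also lowest in replicate 3, at 1460 FPKM in total RNA against 1731 and 2073, and at 1072 against 1167 and 1328 in polysomal RNA. Whether the level of RBMX bears on that of the members was not tested.

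**Figure D3:**
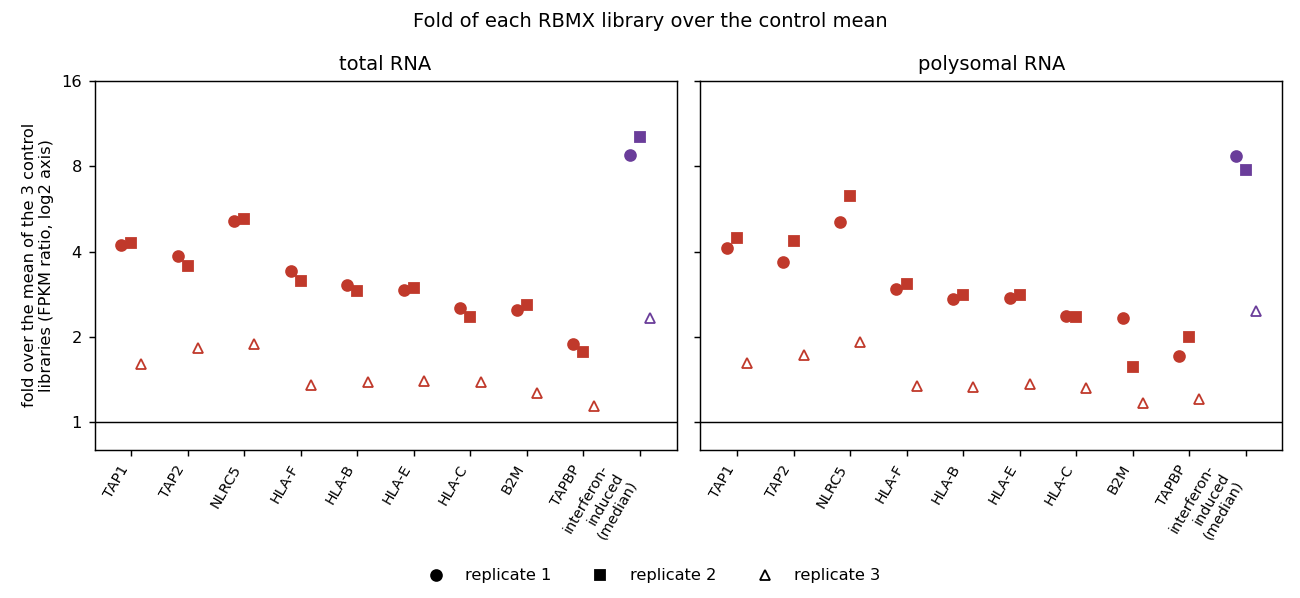
Fold of each RBMX library over the mean of the 3 control libraries of the same fraction (vertical axis, log2) for each of the 9 genes (red) and for the median of 18 interferon-induced genes (purple), with shapes for replicates. Replicate 3 (open triangles) has the lowest fold in each column, between 1.14 and 1.89 for the members in total RNA.

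Without RBMX replicate 3, HLA-E, HLA-F, TAP1, TAPBP and NLRC5 passed the threshold in total RNA and HLA-E, HLA-F and NLRC5 in polysomal RNA, while 178 and 126 of all genes did. The members' limma adjusted p-values were then 0.00141 to 0.112 in total and 0.00593 to 0.225 in polysomal RNA. With replicate 3 of both vectors left out, a choice made after the data were seen, 6 members passed in each fraction. These were HLA-E, HLA-F, TAP1, TAP2 and NLRC5 in both, with B2M in total and HLA-B in polysomal RNA, and 306 and 348 of all genes passed. With any other single library left out, 0 members passed, and all 9 log2 fold changes stayed above 0.

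Other genes of the pathway were followed in lists around the members, none of whose genes passed the threshold in either fraction. Of the 14 other class I and class I-like genes 10 were tested, and their median log2 fold change was 0.087 in total RNA. MICA and MICB, stress-induced ligands of an activating natural killer cell receptor, had 0.25 and 0.24 in total RNA, and ULBP1, another such ligand, had -0.29.

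Among the genes that supply peptides, the immunoproteasome subunit PSMB9 had 3.16, 4.04 and 2.68 FPKM in control total and 33.6, 35.5 and 6.40 in RBMX total libraries. It was higher by 2.31 on the log2 scale in total RNA (limma adjusted p = 0.189), above its neighbour TAP1, and by 2.33 on polysomes (adjusted p = 0.400). PSMB8, another catalytic immunoproteasome subunit, had 1.36 and 1.26 in the 2 fractions, and PSME2, a subunit of the PA28 activator, 0.49 in total RNA. Of the 5 genes of this list, 4 had all RBMX above all control libraries in total RNA, as 11.9% of all genes did, and 2 in polysomal RNA, as 10% did. ERAP2, which trims peptides in the endoplasmic reticulum, had a log2 fold change of 1.21 in total and 1.19 in polysomal RNA, without overlap. The chaperone CALR and the thiol oxidoreductase PDIA3, both of the peptide loading complex, had 0.60 and 0.57 in total RNA. For those 2 genes control replicate 3 was low, at 230 FPKM of CALR against 482 and 428 in the other control total libraries. The cytosolic peptidase LAP3 had 0.71 in both fractions, with control replicate 3 at 20.4 FPKM against 41.3 and 40.8 in total RNA. THOP1, another cytosolic peptidase, had 0.27 in polysomal RNA.

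The DNA-binding partners of NLRC5 had values near 0. Over the 8 genes of the SXY promoter complex the median log2 fold change was -0.12 in total and -0.11 in polysomal RNA. Those without overlap were lower in RBMX cells, NFYB by -0.24, RFXAP by -0.21 and CREB1 by -0.16 in total RNA, where 15.4% of all genes lay below the controls without overlap. NFYB and RFXAP did so in polysomal RNA too, as did 12.5% of all genes. Of the 13 interferon and NF-kB input genes, 8 had all RBMX libraries above all control libraries in each fraction, beside 11.9% of all genes in total and 10% in polysomal RNA. The transcription factors STAT2, IRF7 and IRF1 led these, with 1.45, 1.42 and 1.18 in total and 1.34, 1.43 and 1.18 in polysomal RNA. IRF1, for example, had 3.72, 4.01 and 2.49 FPKM in control total and 10.8, 11.4 and 5.49 in RBMX total libraries. In total RNA 1 gene of this list, the interferon receptor gene IFNAR1, lay below the controls without overlap, as 15.4% of all genes did. It had 20.8 to 25.8 FPKM in control and 18.9 to 20.2 in RBMX total libraries.

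Interferon-induced genes outside antigen presentation had higher medians than the members. All 18 of the list had RBMX libraries above control libraries in both fractions (11.9% and 10% of all genes), and their median log2 fold change was 2.63 in total and 2.55 in polysomal RNA. OAS2, RSAD2 and IFIT2, antiviral effectors, had 3.64, 3.32 and 3.04 in total RNA (limma adjusted p = 0.176, 0.177 and 0.178). RBMX replicate 3 was the lowest here too, with a median of 2.34 times the control mean against 8.76 and 10.2 in replicates 1 and 2. MHC class II genes, which share the SXY module but use the transactivator CIITA, gave a median difference of 0.081 in total and 0.038 in polysomal RNA on the log2 scale, over the 7 of 10 tested. HLA-DQB1 had 0.29, HLA-DRB1 0.14 and HLA-DPB1 0.11 in total RNA without overlap. The medians leave out CIITA, CD74 and HLA-DRA, which were below the filter on low values. CIITA had 0 to 0.0058 FPKM in control and 0.0155 to 0.0356 in RBMX total libraries, and overlapped in polysomal RNA. CD74 had 0.126 to 0.214 against 0.447 to 0.589 FPKM in total RNA, and 0.112 to 0.194 against 0.241 to 0.477 in polysomal RNA. HLA-DRA, which was not tested for its low level and is named because of its values, had 0.00 to 0.055 FPKM in control total and 0.70 to 1.16 in RBMX total libraries.

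**Figure D4:**
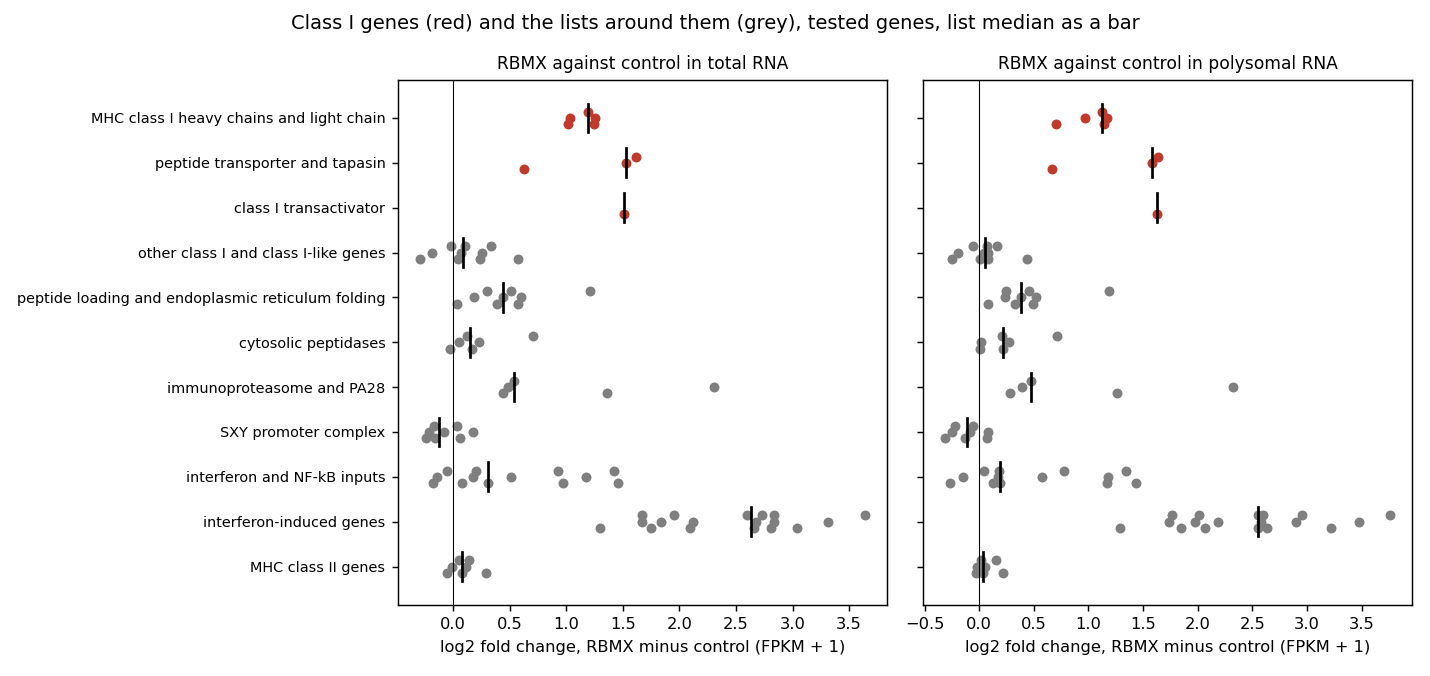
Log2 fold change of FPKM + 1 between RBMX and control cells (horizontal axes) in total RNA (left) and polysomal RNA (right) for the tested genes of each list (1 point per gene, members in red, others in grey, black bar for the list median). The members lie between interferon-induced genes, with a median of 2.63 in total RNA, and the SXY complex and MHC class II genes, with medians of -0.12 and 0.081.

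The 5 genes whose pattern over the 12 libraries was most like the members' mean were UBE2L6, BST2, LAMP3, PARP14 and MX2, with Pearson correlations of 0.993 to 0.994, out of 14159 genes searched. The members themselves correlated with this mean by 0.903 (B2M) to 0.997 (HLA-E), but each is part of the mean, which raises its value. The points share the 2 vectors and cultures, so these values are a description with no test.

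Whether the members' mRNAs were found on polysomes in another share than in total RNA was asked next. Polysomal and total levels of the members differed by less than those of the 2 vectors. In control cells, polysomal minus total log2 differences were 0.07 (B2M) to 0.27 (HLA-B), with limma adjusted p-values from 0.664 to 0.984. NLRC5 was the 1 member whose polysomal libraries all lay above the total libraries, where 7.63% of all genes did. In RBMX cells 8 members were between 0.04 and 0.27 and B2M was at -0.25, with limma adjusted p-values from 0.703 to 0.976 and overlap for all 9, where the groups of 14.6% of all genes did not overlap in the higher direction. Of all genes tested 0.0818% passed the threshold in control cells and 1.34% in RBMX cells, counts of 12 and 196 that became 6 and 4 with the replicate number as a block. With that block 0 members passed in either vector.

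The ratio of polysomal to total RNA was also taken within each replicate number of a vector, called a culture here. The study's methods describe total RNA as pooled from the gradient's fractions, but the labels also mention a pair of dishes for the RNA types, so it is not certain that both libraries of a number share a lysate. The ratios, the blocks and the calls below rest on that pairing. This comparison was added after the data were seen. HLA-B, HLA-C, HLA-E, TAP1, TAP2, TAPBP and NLRC5 had a higher FPKM in polysomal than in total RNA in 6 of 6 cultures, which held for 16% of all genes tested. The ratio for TAP1 was 1.12 to 1.22, and that for HLA-C was 1.06 to 1.30. HLA-F was higher in 4 of 6 cultures. B2M was higher in 2 of 6, with ratios of 1.00, 1.16 and 0.994 in control cultures and 0.984, 0.632 and 0.963 in RBMX cultures 1 to 3.

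In a fit of all 12 libraries with the cultures as blocks, 4 members passed the threshold, all as higher in polysomal RNA, where 11% of all genes passed in that direction. TAP1 was higher by 0.22 on the log2 scale (standard error 0.029, limma adjusted p = 0.00764), TAP2 by 0.24 (standard error 0.056, adjusted p = 0.0284), TAPBP by 0.17 (standard error 0.045, adjusted p = 0.0373) and HLA-B by 0.21 (standard error 0.062, adjusted p = 0.0479). NLRC5, HLA-C and HLA-E followed with limma adjusted p-values of 0.0564, 0.0676 and 0.0681, then HLA-F with 0.253 and B2M with 0.605. Only TAP1 passed whichever culture was left out. TAP2 did not without control culture 1 or 2 or RBMX culture 1 or 3, TAPBP passed only without RBMX culture 1, and HLA-B did not pass with any of the 6 left out. Without RBMX culture 2 the difference of B2M turned from -0.088 to 0.027, and NLRC5 passed (limma adjusted p = 0.0432, with a range over all alternatives of 0.0278 to 0.787). With quantile normalization the difference of B2M was 0.43 and passed (limma adjusted p = 0.0224, and up to 0.849 over the alternatives). Without the blocks 0 members passed, and without the filter on low values only TAP1 did.

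**Figure D5:**
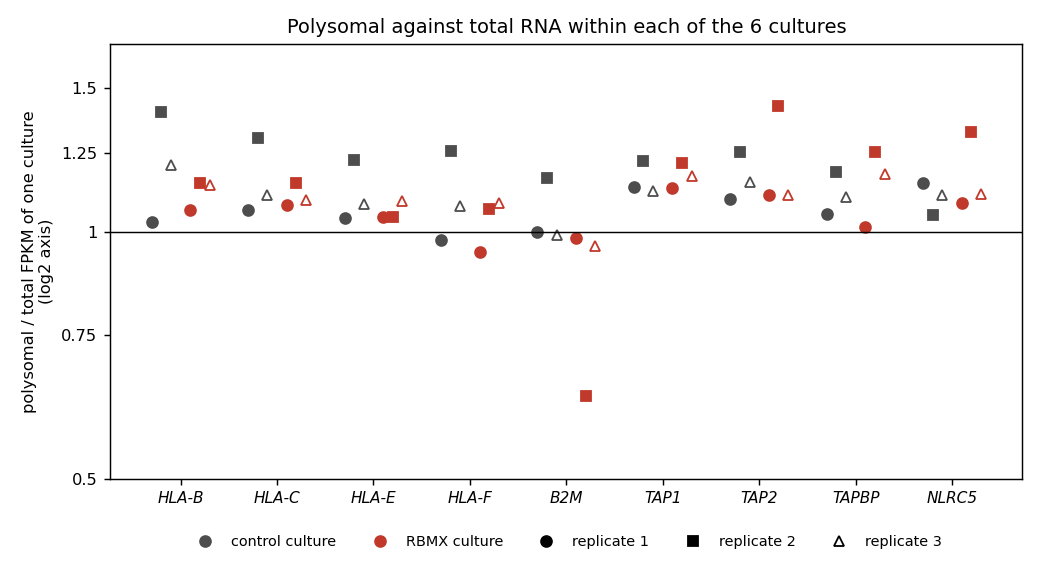
Ratio of polysomal to total FPKM (vertical axis, log2) of each of the 9 genes within each of the 6 cultures, grey for control and red for RBMX cultures, with shapes for replicates. Ratios lie between 0.947 and 1.43 apart from B2M in RBMX culture 2 at 0.632.

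The difference between vectors was about as large in polysomal as in total RNA, and a change of ribosome loading was tested by subtracting the log2 fold change in total RNA from that in polysomal RNA. It ran from -0.32 (B2M) to 0.11 (NLRC5), with a limma adjusted p of 1.00 for each member, while 0.0204% of all genes passed. The 95% confidence interval was -1.30 to 0.66 for B2M, -0.61 to 0.69 for TAPBP and -1.17 to 1.38 for NLRC5. This fit did not pair the libraries by culture, so the spread between cultures enters these intervals. Differences of such a size could not be resolved in it. With the cultures as blocks 0 members passed the threshold either, and the intervals of that fit are not given here.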

How the data were processed

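Total and polysomal RNA of 3 control and 3 RBMX-transfected HEK293 cultures were sequenced from 500 ng of RNA per library. The authors deposited FPKM values per gene. The submitters' processing notes name CASAVA 1.8, TopHat2 2.0.13, Cuffnorm, Cufflinks 2.2.1 and the build hg19, whereas the paper's methods describe hg38 for its counts. Strand-specific counting is not given in the sources used here, so antisense overlaps were not separable, and fragment numbers are unknown. Cuffnorm can rescale FPKM between libraries.

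All 12 columns were matched by name (0 left unmatched). Genes whose FPKM averaged 0.5 or more were fitted with limma 3.58.1 (R 4.3.3, eBayes with trend) as log2(FPKM + 1), with p-values adjusted by Benjamini-Hochberg over all genes with a threshold of 0.05. The 5 comparisons used the 6 libraries concerned, or all 12 for the difference between fractions. Fits were tested on simulated data. Members and lists were chosen with earlier results of these data known. Beside members and RBMX, the text names list genes past the threshold, up to 3 per list and comparison with the largest log2 fold change among those without overlap, and the 5 genes most like the members. HLA-DRA, CIITA, CD74, IFNAR1, PTPRC and CD14 were named outside this rule, and 1 gene the rule covers is left out of the text.

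Total and polysomal libraries were paired by number, since the methods pool total RNA from the gradient, although the labels also mention separate dishes. Across genes without small RNAs, deviations from group means correlated between fractions by 0.605, 0.686 and 0.835 for control numbers 1 to 3 and by 0.222, 0.0198 and 0.654 for RBMX. Crossed pairs of numbers 1 and 2 gave 0.651 and 0.633 in control and 0.407 and 0.481 in RBMX cells, so the values do not bear out the pairing of numbers 1 and 2. Alternatives were a pseudocount of 0.1, no filter or a minimum of 1, median-ratio rescaling, quantile normalization, a replicate block, all 12 libraries in one fit and each library left out. Promoters came from RefSeq, transcripts from GENCODE. Python 3.11.15 and matplotlib 3.10.9 were used for sequences and plots.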

Additional observations from a re-analysis of the deposited data

How the results depend on the processing

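RBMX against control differences of all 9 members stayed above 0 under every alternative run, from 0.49 to 2.07 in total and from 0.44 to 2.10 in polysomal RNA, and no pseudocount, filter or scaling brought a member past the threshold. Each library left out gave 0 to 5 members and 19 to 178 genes past the threshold in total and 0 to 3 members and 9 to 126 genes in polysomal RNA, the highest without RBMX replicate 3. Without replicate 3 of both vectors there were 6 and 6 members and 306 and 348 genes. Other counts of genes that moved were 73 without a filter, 60 with all 12 libraries in one fit and 13 with a replicate block in total RNA, and 22 and 3 with the last 2 in polysomal RNA. The replicate numbers of different vectors share only a number (correlations from -0.171 to 0.340), and the block moved no member past the threshold. For polysomal against total RNA, genes past the threshold in control cells were 6 with the replicate block, 41 with all 12 libraries and 12 to 26 with a library left out. In RBMX cells they were 53 without a filter, 70 with quantile normalization, 4 with the replicate block, 21 with all 12 libraries and 10 to 42 with a library left out, against 196. For the difference between fractions they were 5 without a filter, 5 with the replicate block and 4 to 7 with a library left out, against 3. Within the 6 cultures they were 2129 without a filter (1 member), 1310 and 0 members without the replicate block, and 839 to 3117 with 1 to 3 members when a culture was left out, against 3512 and 4. Quantile normalization gave 8 members there, but 3044 of all 14676 genes then passed as higher in polysomal RNA and 1569 as lower.

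Signs turned only for differences that were uncalled in the main fits. Quantile normalization gave 0.49 for B2M in RBMX cells and 0.43 within cultures, where B2M then passed the threshold (limma adjusted p = 0.0224). For the difference between fractions it gave 0.15 (HLA-B), 0.31 (HLA-C), 0.041 (HLA-E) and 0.13 (B2M). With a library left out and no block, polysomal minus total differences ranged in control cells from -0.045 to 0.17 (B2M) and -0.044 to 0.47 (TAP2), and in RBMX cells from -0.20 to 0.51 (HLA-B), -0.12 to 0.43 (HLA-C), -0.28 to 0.42 (HLA-E), -0.37 to 0.42 (HLA-F), -0.23 to 0.69 (TAP1), -0.064 to 0.66 (TAP2), -0.031 to 0.39 (TAPBP) and -0.21 to 0.66 (NLRC5). The difference between fractions ranged from -0.22 to 0.0059 (HLA-B), -0.12 to 0.029 (HLA-C), -0.16 to 0.0061 (HLA-F), -0.0053 to 0.058 (TAP1), -0.059 to 0.12 (TAP2) and -0.025 to 0.12 (TAPBP), and B2M within cultures from -0.15 to 0.027. The cause was not tested.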
